A study of Homo sapiens with 6 samples.

Results

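The collagens and lysyl oxidases of A375, an established human melanoma cell line with mutant BRAF, were examined for their messenger RNA levels with and without BMH-21. The genes were taken by symbol: every row of the deposited table named COL, a number, A and a number, together with LOX and LOXL1 to LOXL4. The group itself was proposed with earlier results of these data known. The rule gave 48 of 25548 gene rows, of which 43 encode collagen chains and 5 encode lysyl oxidases. BMH-21 is an inhibitor of RNA polymerase I, which makes most ribosomal RNA in the nucleolus. The series has 6 samples in 2 groups. The treated group of 3 received 1 µM BMH-21 and was collected at 6 h, and the control group of 3 received the solvent DMSO. Control samples are titled 0 h, so the drug and 6 h of culture cannot be told apart. All samples are cultures of A375 alone, grown in DMEM with serum. For each gene and group the deposited table gives 3 values in FPKM, which counts fragments relative to transcript length and library size. Although titled as replicates, they behaved as 1 estimate between bounds: the first lay midway between its companions in 99.9% of the rows whose values all exceeded 0, which were 16213 rows for control and 15881 for BMH-21. Single libraries were not analysed here, so the spread between replicates is unknown and differences carry no p-value. The sequencing depth is unknown.

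Collagens are built from chains that wind into a triple helix in the endoplasmic reticulum, where prolines and lysines are hydroxylated, and are then secreted and assembled into fibrils, networks or filaments. Lysyl oxidases are copper-dependent enzymes outside the cell that oxidise lysine and hydroxylysine side chains, from which the covalent crosslinks of collagen and elastin form. LOXL2, LOXL3 and LOXL4 carry scavenger receptor cysteine-rich domains that LOX and LOXL1 lack. In melanoma, collagens and their crosslinking are studied as parts of the matrix that tumour cells and neighbouring fibroblasts lay down.

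An estimate of 1 FPKM or more in either group, called measured here, was reached by 22 of the 48 genes, 19 collagens and 3 lysyl oxidases. LOXL4 was lower with BMH-21 and COL7A1 and COL27A1 were higher, and in these 3 genes the interval between the bounds of one group did not overlap that of the other. Such intervals are called separate, which describes the table and is no test. In the other 19 measured genes the intervals overlapped. Of all 12757 measured genes other than short RNAs, 3.58% were higher and 3.14% were lower with separate intervals, against 2 and 1 of the 22. The split of calls over all genes depended on the scaling: 457 were higher and 400 lower as deposited, and 357 higher and 517 lower after both groups were rescaled to equal sums of FPKM without short RNA rows. The median difference of the 22 genes in log2(FPKM + 1), BMH-21 minus control, was -0.05, beside 0.03 for all measured genes. Because the RNA came from whole cultures of A375, a change in some cells and a smaller change in all cells cannot be told apart.

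The sequences before the starts of the 3 separate genes are shown because their transcripts begin directly after these windows. Each is the 250 bases upstream of the RefSeq start in GRCh38.p14, read 5′ to 3′ on the gene's own strand. Capitals mark GC boxes, the letters GGGCGG on either strand, which are known to bind the transcription factor SP1.
LOXL4, chr10:98268195-98268444, minus strand: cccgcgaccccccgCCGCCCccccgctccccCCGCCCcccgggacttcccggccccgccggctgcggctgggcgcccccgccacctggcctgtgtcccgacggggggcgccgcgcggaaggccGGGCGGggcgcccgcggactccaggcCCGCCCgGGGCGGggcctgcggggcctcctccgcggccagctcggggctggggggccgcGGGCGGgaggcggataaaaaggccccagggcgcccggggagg
COL7A1, chr3:48595330-48595579, minus strand: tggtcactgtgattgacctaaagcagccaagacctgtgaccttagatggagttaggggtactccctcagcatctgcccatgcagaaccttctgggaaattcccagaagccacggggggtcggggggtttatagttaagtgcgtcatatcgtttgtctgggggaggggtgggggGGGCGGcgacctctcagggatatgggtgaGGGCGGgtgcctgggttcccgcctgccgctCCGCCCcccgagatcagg
COL27A1, chr9:114155287-114155536, plus strand: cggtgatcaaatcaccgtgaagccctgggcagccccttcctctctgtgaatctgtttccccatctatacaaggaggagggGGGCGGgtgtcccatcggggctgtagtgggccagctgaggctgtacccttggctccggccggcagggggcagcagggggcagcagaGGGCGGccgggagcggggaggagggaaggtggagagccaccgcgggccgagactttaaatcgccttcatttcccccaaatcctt

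The LOXL4 window held 6 GC boxes and was 86.4% G or C, the COL7A1 window held 3 and was 60.8% G or C, and the COL27A1 window held 2 and was 64.4% G or C. The median over 8693 measured genes with a RefSeq window was 65.2%. GC boxes are common: 63.8% of the windows of measured genes and 42.6% of all 35116 windows held at least 1. A gene can have several windows, and counted by gene, with a match in any window, a GC box was found in 14 of the 17 measured members that had a window and in 75.6% of the 8693 measured genes. The letters TATAAA of the TATA box were searched on both strands. Before COL7A1 they were found on the opposite strand only, where the sequence shown reads tttata. They were absent from the LOXL4 and COL27A1 windows, and 5.75% of windows of measured genes held them. Only the exact letters were searched and distance from the start was not considered, so whether a working TATA box is present was not tested. The core of the dioxin response element, GCGTG, was in none of these 3 windows. By gene it was found in 8 of the 17 members and 54.2% of measured genes. The AP-1 letters TGANTCA, the E-box CACGTG and the p53 half-site were in none of the 17, and by gene 6.11%, 11.3% and 6.43% of measured genes held them. These matches describe letters in a short window and do not show binding.

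LOXL4, a lysyl oxidase of the secreted matrix, had the highest level of all 48 genes in control. Its estimate was 306 FPKM with bounds of 250.3 and 362 in control, and 109 FPKM with bounds of 89.5 and 128 with BMH-21. The lower control bound was 1.95 times the upper BMH-21 bound. LOXL4 was thus 2.81-fold lower by the ratio of estimates, a difference of -1.48 ± 0.37 in log2(FPKM + 1), where ± gives a half-width that joins the bounds of control and BMH-21. Only 2 of the 12757 measured genes had a lower difference. By level, LOXL4 went from rank 224 among them in control to rank 701 with BMH-21.

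The other lysyl oxidases overlapped between the groups. LOXL3, needed for palate and spine development in mice, was at 87.5 FPKM (bounds 67.4 to 108) in control and 83.6 FPKM (bounds 64.9 to 102) with BMH-21. LOXL2, which also crosslinks type IV collagen, was at 20.7 FPKM (bounds 16.8 to 24.5) in control and 18.1 FPKM (bounds 14.7 to 21.4) with BMH-21. Both estimates were below control by less than their half-widths, with log2(FPKM + 1) differences of -0.06 ± 0.47 and -0.19 ± 0.37. LOX, the founding member of the family, was at 0.606 FPKM (bounds 0.429 to 0.782) and 0.679 FPKM (bounds 0.483 to 0.875), and LOXL1, the elastic fibre enzyme, at 0.172 FPKM (bounds 0.0328 to 0.311) and 0.116 FPKM (bounds 0.0188 to 0.212). LOXL4 made up 73.7% of the summed FPKM of the 5 enzymes in control and 51.5% with BMH-21. Without LOXL4 the sum was 109 FPKM in control and 102 FPKM with BMH-21. The ratio of LOXL4 to LOXL3 in FPKM was 3.50 in control and 1.30 with BMH-21, and in BMH-21 the intervals of these genes overlapped.

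**Figure D1:**
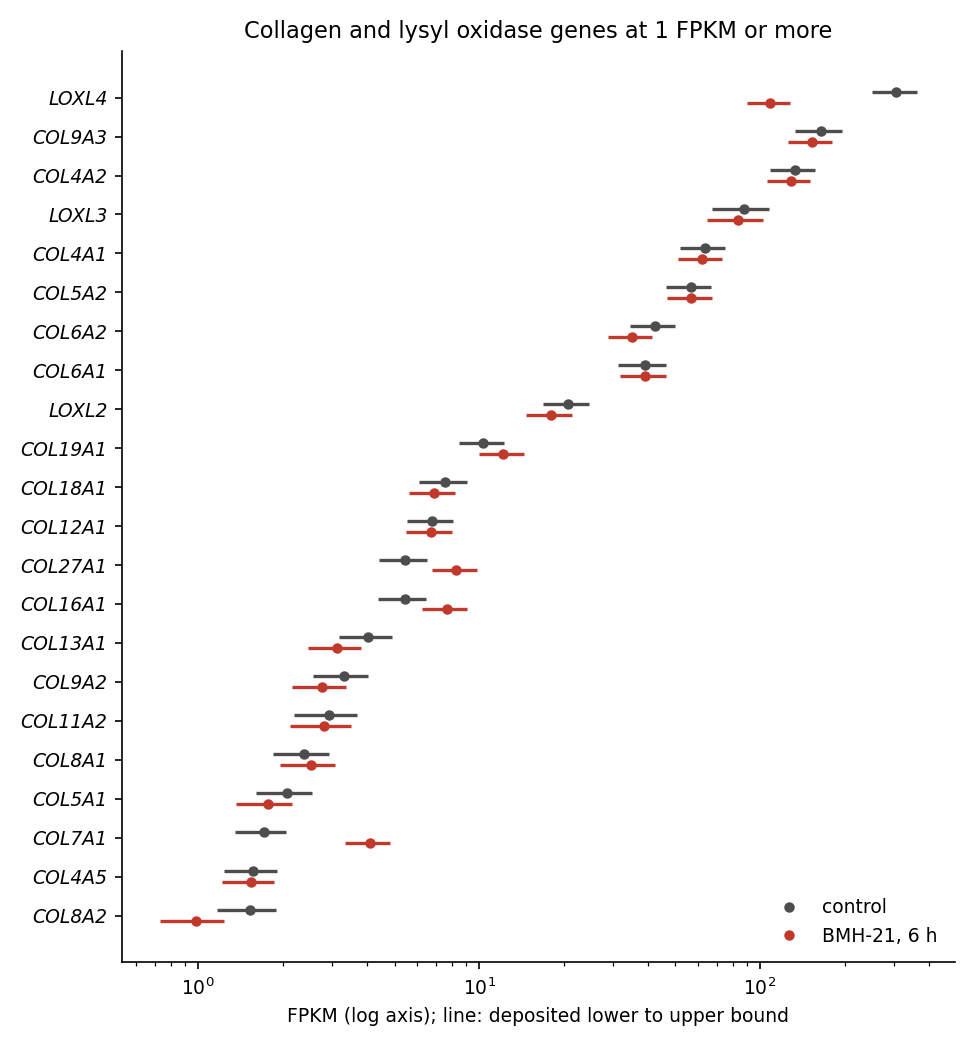
Levels of the 22 measured collagen and lysyl oxidase genes in FPKM on a log axis, in control (grey) and with BMH-21 (red); points are the deposited estimates and lines run from the lower to the upper bound. LOXL4 stood at 306 FPKM in control and 109 FPKM with BMH-21, COL7A1 and COL27A1 lay to the right in BMH-21, and the other lines of a pair overlap.

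COL7A1 encodes type VII collagen, which forms the anchoring fibrils that fasten the epidermal basement membrane to the dermis. It was at 1.71 FPKM (bounds 1.35 to 2.06) in control and 4.07 FPKM (bounds 3.34 to 4.80) with BMH-21. The ratio of estimates was 2.38, the log2(FPKM + 1) difference was 0.91 ± 0.28, and the lower BMH-21 bound was 1.62 times the upper control bound. Its difference ranked at position 147 from the top among the 12757 measured genes. The pseudocount of 1 understates the change of a gene at this level: the log2 difference was 1.25 with a pseudocount of 0.01. On the log2(FPKM + 1) scale at a threshold of 1.5-fold, COL7A1 was the 1 member above and LOXL4 the 1 member below, while 2.97% and 2.42% of all measured genes passed in each direction.

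Fibrillar collagens form the rope-like fibrils of connective tissue, and 4 of the 11 genes were measured. COL27A1, a fibrillar collagen known from cartilage, was at 5.47 FPKM (bounds 4.39 to 6.54) in control and 8.30 FPKM (bounds 6.80 to 9.80) with BMH-21. It was 1.52-fold higher by the ratio of estimates and 0.53 ± 0.34 higher in log2(FPKM + 1), and the intervals were separate by a narrow margin, with a ratio of the nearest bounds of 1.04. With equal sums of FPKM the intervals of COL27A1 overlapped. COL5A2, a chain of the type V collagen that starts type I fibrils, was the most abundant fibrillar chain at 56.6 FPKM (bounds 46.4 to 66.8) in control and 57.0 FPKM (bounds 46.7 to 67.2) with BMH-21. Its partner COL5A1 was at 2.08 FPKM (bounds 1.61 to 2.55) and 1.77 FPKM (bounds 1.37 to 2.16), so that COL5A2 was 27.3 times COL5A1 in control and 32.3 times with BMH-21. COL11A2, a chain of cartilage fibrils, was at 2.92 FPKM (bounds 2.18 to 3.66) and 2.81 FPKM (bounds 2.13 to 3.49). The chains of types I, II and III, the bulk collagens of skin, bone and cartilage, were all under 1 FPKM in both groups. COL1A1 was at 0.598 FPKM (bounds 0.432 to 0.763) in control and 0.459 FPKM (bounds 0.327 to 0.591) with BMH-21, COL1A2 at 0.0993 FPKM and 0.0998 FPKM, and COL3A1 at 0.0296 FPKM and 0.0277 FPKM. COL3A1 is the gene next to COL5A2 on chromosome 2.

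Type IV collagen is the network of basement membranes, and its chains showed nearly equal estimates in both groups. COL4A2 was at 133 FPKM (bounds 109 to 157) in control and 128 FPKM (bounds 106 to 151) with BMH-21. COL4A1 was at 63.5 FPKM (bounds 52.1 to 74.9) and 62.1 FPKM (bounds 51.1 to 73.1). The COL4A2 interval lay above that of COL4A1 in both groups, at ratios of 2.10 and 2.07, although the common type IV molecule is known to hold more COL4A1 than COL4A2 chains. The log2(FPKM + 1) differences were -0.05 ± 0.36 for COL4A2 and -0.03 ± 0.36 for COL4A1. These genes are transcribed away from each other on chromosome 13, from starts with 126 bases between them. That stretch is shown because both transcripts begin at its ends; it is written on the COL4A2 strand in GRCh38.p14 from RefSeq windows, with the CCAAT box in capitals.
COL4A1 and COL4A2, chr13:110307158-110307283, plus strand: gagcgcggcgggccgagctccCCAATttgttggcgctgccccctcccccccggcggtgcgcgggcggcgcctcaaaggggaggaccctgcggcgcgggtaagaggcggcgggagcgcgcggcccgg
It held 1 CCAAT box, counted on both strands, and was 80.2% G or C. Of the upstream windows of measured genes 33.4% held that box, but those windows are longer, at 250 bases against 126. The other type IV genes lie in like pairs. The nearest RefSeq starts have 379 bases between them for COL4A6 and COL4A5 on chromosome X. For COL4A4 and COL4A3 on chromosome 2 they have 418 bases between them. COL4A6 also has a RefSeq start further from COL4A5. The levels of these other type IV genes were low. COL4A5 was at 1.57 FPKM (bounds 1.23 to 1.90) in control and 1.54 FPKM (bounds 1.21 to 1.86) with BMH-21, 8.36 and 8.68 times COL4A6. COL4A3 and COL4A4 stayed under 0.1 FPKM in both groups.

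Type VI collagen forms beaded filaments around cells, in which chains of COL6A1, COL6A2 and COL6A3 or a relative of COL6A3 join. COL6A1 was at 38.8 FPKM (bounds 31.3 to 46.3) in control and 38.9 FPKM (bounds 31.7 to 46.1) with BMH-21. COL6A2 was at 42.2 FPKM (bounds 34.4 to 50.0) and 35.0 FPKM (bounds 28.9 to 41.2), a log2(FPKM + 1) difference of -0.26 ± 0.36 within its half-width. COL6A3 was far below them, at 0.315 FPKM (bounds 0.225 to 0.405) and 0.366 FPKM (bounds 0.234 to 0.498), and its relatives COL6A5 and COL6A6 were under 0.1 FPKM. COL6A1 was 123 times COL6A3 in control and 106 times with BMH-21. COL6A1 and COL6A2 are neighbours on chromosome 21.

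Fibril-associated collagens sit on the surface of fibrils or near basement membranes, and 5 of 10 were measured. COL9A3, a chain of the type IX collagen of cartilage, had the highest level of any collagen, at 165 FPKM (bounds 133 to 196) in control and 153 FPKM (bounds 126 to 180.5) with BMH-21. Its partner COL9A2 was at 3.29 FPKM (bounds 2.56 to 4.03) and 2.76 FPKM (bounds 2.15 to 3.36), and COL9A1 at 0.114 FPKM and 0.110 FPKM. COL16A1, the type XVI chain, was at 5.43 FPKM (bounds 4.36 to 6.49) in control and 7.67 FPKM (bounds 6.26 to 9.08) with BMH-21. Its intervals overlapped slightly, although its log2(FPKM + 1) difference of 0.43 ± 0.34 exceeded the half-width. COL19A1, the type XIX chain, was at 10.3 FPKM (bounds 8.45 to 12.2) and 12.2 FPKM (bounds 9.97 to 14.5). COL12A1, a collagen of tendon and ligament, was at 6.80 FPKM (bounds 5.56 to 8.05) and 6.73 FPKM (bounds 5.48 to 7.97).

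The remaining measured collagens belong to smaller groups. COL8A2 and COL8A1 encode the short chains of type VIII collagen, the hexagonal network of Descemet's membrane in the eye. COL8A2 was at 1.53 FPKM (bounds 1.17 to 1.89) in control and 0.980 FPKM (bounds 0.730 to 1.23) with BMH-21, and its log2(FPKM + 1) difference of -0.35 ± 0.28 exceeded the half-width while the intervals overlapped slightly. COL8A1 was at 2.38 FPKM (bounds 1.84 to 2.92) and 2.52 FPKM (bounds 1.95 to 3.08). COL13A1, a transmembrane collagen of the neuromuscular junction, was at 4.03 FPKM (bounds 3.18 to 4.89) and 3.12 FPKM (bounds 2.45 to 3.78). COL18A1, whose cleavage releases endostatin, was at 7.59 FPKM (bounds 6.13 to 9.05) and 6.90 FPKM (bounds 5.62 to 8.18). With COL16A1 and COL8A2, 5 of the 22 measured members differed by more than their half-width, against 14.3% of all measured genes.

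**Figure D2:**
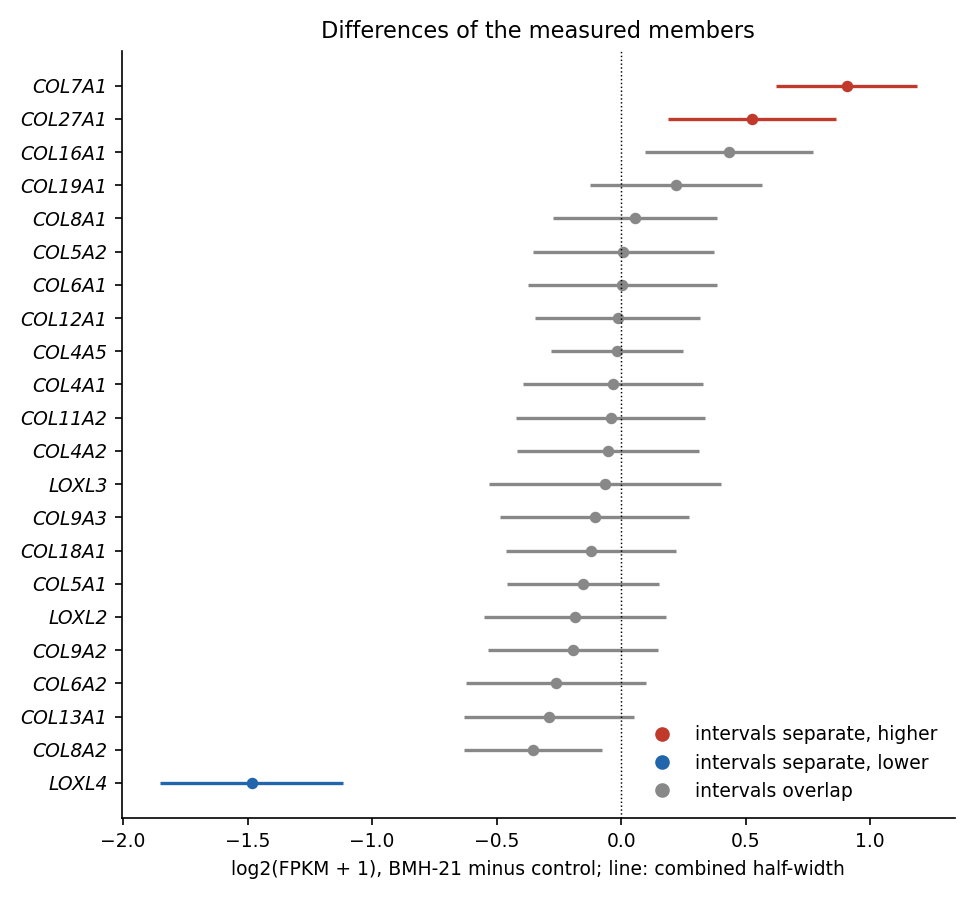
Difference of each measured member in log2(FPKM + 1), BMH-21 minus control, with lines for its half-width; colours give whether the deposited intervals were separate. LOXL4 (-1.48) stands apart on the left and COL7A1 (0.91) and COL27A1 (0.53) lie on the right, while COL16A1 and COL8A2 exceed their half-widths with overlapping intervals.

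**Figure D3:**
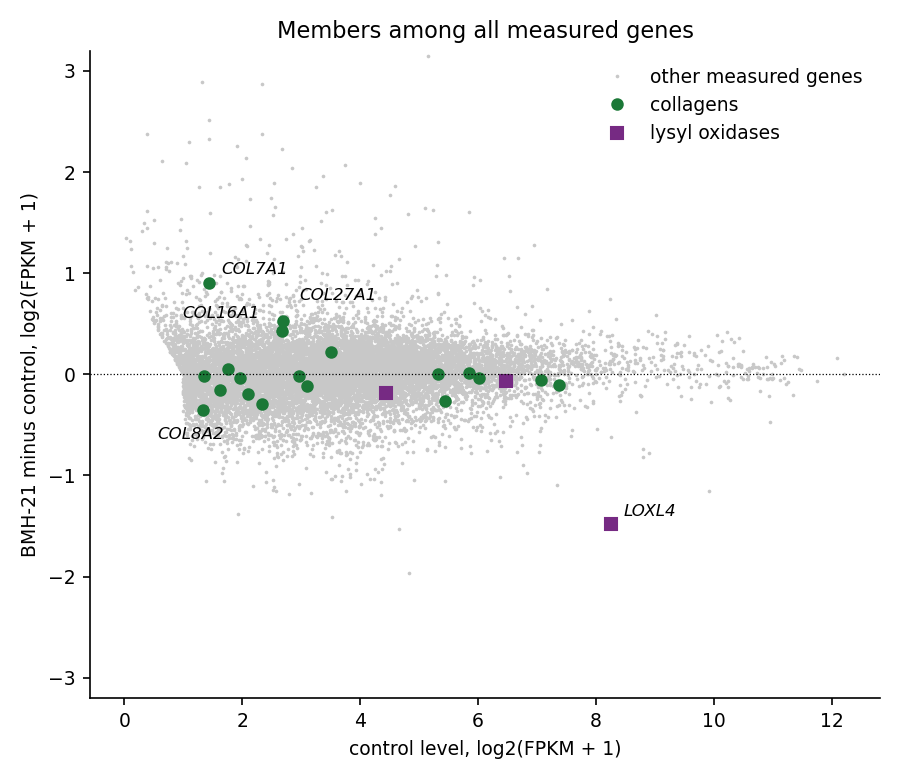
Difference in log2(FPKM + 1), BMH-21 minus control, against the control level in log2(FPKM + 1), for all 12757 measured genes (grey), collagens (green circles) and lysyl oxidases (purple squares); 5 genes lie outside the drawn range of 3.2 in either direction. LOXL4 lies below the cloud of genes at its level, and most collagens lie within it.

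Over the whole group, estimates were below control in 15 of the 22 measured genes, or 68.2%, against 44.8% of all measured genes. These shares moved together with the scaling: equal sums gave 17 of the 22, or 77.3%, against 54.2%, and quantile normalization 17 of the 22 against 52.7%. Without a filter on low values the shares lay closer together, at 27 of all 48 members, or 56.25%, against 52.2% of 23685 genes. Most differences of the 22 genes were small, and the signs of COL5A2 and COL6A1 changed with the scaling. The median absolute difference in log2(FPKM + 1) was 0.14 in the 22 genes and 0.17 in all measured genes, below the median half-widths of 0.34 and 0.37. The summed FPKM of the 43 collagens was 558 in control and 539 with BMH-21, and COL9A3, COL4A2, COL4A1, COL5A2, COL6A1 and COL6A2 together made up 89.5% and 88.0% of it. In the order of levels, neighbours overlapped in 17 of 21 steps in control and 16 of 21 with BMH-21. The control order broke between LOXL4 and COL9A3, between COL4A2 and LOXL3, between COL6A1 and LOXL2 and between LOXL2 and COL19A1. With BMH-21, LOXL4 stood in the third place and overlapped with COL4A2 above it and LOXL3 below it.

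The 26 genes that did not reach 1 FPKM in either group were 24 collagens, LOX and LOXL1. Their highest estimates were those of LOX, and 13 of them were under 0.1 FPKM in both groups. The lower bound was 0 in at least 1 group for 8 of them. Intervals overlapped in 24 of the 26. The share among all genes under 1 FPKM was not computed. Without the filter, 520 of 23685 genes other than short RNAs were higher and 500 were lower with separate intervals. These counts include the 457 higher and 400 lower among the 12757 measured genes, so they are no share for genes under 1 FPKM. COL15A1, a basement membrane collagen related to COL18A1, was at 0.415 FPKM (bounds 0.293 to 0.537) in control and 0.186 FPKM (bounds 0.114 to 0.257) with BMH-21, with separate intervals. COL20A1, a fibril-associated collagen, was listed at 0.00203 FPKM (bounds 0 to 0.0161) in control and at 0.116 FPKM (bounds 0.0556 to 0.176) with BMH-21, also separate. At such levels few fragments underlie a value, and no fold is given for COL20A1.

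**Figure D4:**
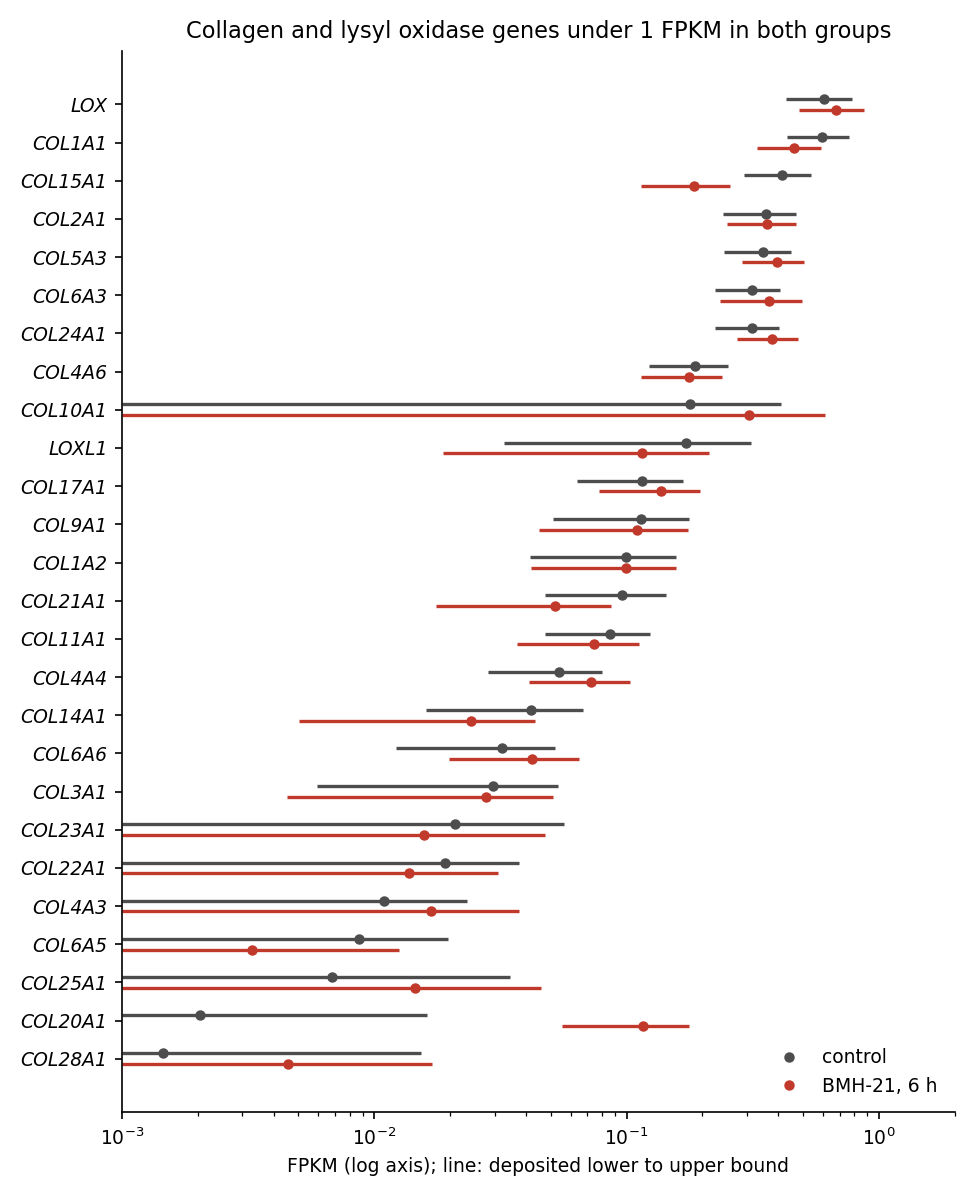
Levels in FPKM on a log axis of the 26 members under 1 FPKM in both groups, in control (grey) and with BMH-21 (red); points are the deposited estimates, lines run between the bounds, and lines that reach the left edge continue below 0.001 FPKM. The lines overlap in 24 genes, and COL15A1 (0.415 and 0.186 FPKM) and COL20A1 (0.00203 and 0.116 FPKM) are the separate ones.

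Position on the chromosome was examined through the nearest protein-coding genes on either side in GENCODE. Of 31 measured neighbours that are not members, 0 were higher and 2 were lower with separate intervals, where all measured genes gave 3.58% and 3.14%. PYROXD2, which lies beside LOXL4 on the same strand of chromosome 10, was at 16.5 FPKM (bounds 13.3 to 19.8) in control and 10.9 FPKM (bounds 8.71 to 13.0) with BMH-21. C10orf28 (R3HCC1L), on the other side of LOXL4, was at 5.60 FPKM (bounds 4.49 to 6.71) and 6.32 FPKM (bounds 5.09 to 7.54). The other lower neighbour was SLC19A1, the reduced folate carrier, which overlaps COL18A1 on the opposite strand, at 10.4 FPKM in control and 4.56 FPKM with BMH-21. The neighbours of COL7A1 both overlapped between groups: UCN2, a stress peptide of the corticotropin-releasing family, was at 15.4 FPKM and 13.7 FPKM, and UQCRC1, a subunit of respiratory complex III, at 129 FPKM and 131 FPKM. Of 6 measured neighbours that overlap a member and are not members themselves, 3 had half-widths above 1 in log2(FPKM + 1). These were HTRA2 and DOK1, opposite LOXL3, and TCFL5, opposite COL9A3, with half-widths of 1.55, 2.41 and 1.97. The other 3, SLC19A1 opposite COL18A1, LMBRD1 opposite COL19A1 and ENTPD4 on the strand of LOXL2, had half-widths of 0.404, 0.377 and 0.366. The libraries were stranded, but how strand was counted is not stated in the sources used here, so values of overlapping pairs are uncertain.

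Genes that modify, export, assemble, degrade or bind collagen were described by lists chosen with earlier results of these data known. Among 105 measured genes of 8 lists, 5 were higher and 3 were lower with separate intervals. These are 4.76% and 2.86%, near the 3.58% and 3.14% of all measured genes, so the counts do not set these lists apart. Of the higher genes, DCN, ITGA11 and SNAI2 were under 1 FPKM in control and passed the filter only through the BMH-21 group. The same filter was applied to all measured genes. None of 21 measured enzymes and chaperones of collagen modification and folding was separate, and their median log2(FPKM + 1) difference was 0.03. SERPINH1, the collagen chaperone HSP47, was at 60.3 FPKM in control and 55.1 FPKM with BMH-21. By difference the extremes were FKBP14, a prolyl isomerase, at 8.34 FPKM and 11.1 FPKM, LEPREL1, a prolyl hydroxylase, at 1.73 FPKM and 2.36 FPKM, LEPREL4, a partner of lysyl hydroxylation, at 21.4 FPKM and 16.4 FPKM, and HSPA5, the general chaperone BiP, at 92.5 FPKM and 68.8 FPKM. None of 10 genes of procollagen export was separate either (median 0.07). SAR1A, a GTPase of coated vesicles, was at 36.9 FPKM and 43.0 FPKM, SEC23B of the same coat at 33.3 FPKM and 36.0 FPKM, PREB, which activates that GTPase, at 36.1 FPKM and 34.1 FPKM, and KLHL12, which enlarges the vesicles for procollagen, at 17.8 FPKM and 14.7 FPKM.

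Outside the cell, 2 of 11 measured genes of procollagen processing and assembly were higher with separate intervals and 0 were lower (median -0.09). Over all measured genes 3.58% were higher and 3.14% lower, and the lists of this paragraph are too short to be read against these shares. DCN encodes decorin, a small proteoglycan that binds fibrils, and was at 0.419 FPKM (bounds 0.215 to 0.622) in control and 2.50 FPKM (bounds 1.88 to 3.11) with BMH-21. LUM encodes its relative lumican and was at 2.34 FPKM (bounds 1.76 to 2.93) and 5.23 FPKM (bounds 4.13 to 6.34). BGN (biglycan, 11.3 FPKM and 7.94 FPKM) and FN1 (fibronectin, 13.6 FPKM and 10.2 FPKM) had the most negative log2(FPKM + 1) differences of the list, -0.45 and -0.38, and overlapped. Of 10 measured elastic fibre genes none was separate (median -0.11). The most negative differences were -0.50 for EFEMP2, at 13.1 FPKM and 8.98 FPKM, and -0.44 for the microfibril gene MFAP2, at 51.7 FPKM and 37.8 FPKM. The most positive were 0.04 for LTBP3, at 36.2 FPKM and 37.3 FPKM, and 0.01 for EMILIN1, at 58.1 FPKM and 58.5 FPKM. Among 12 collagen-degrading proteases and their inhibitors (median -0.12), CTSL1, the lysosomal protease cathepsin L, was the 1 separate gene, at 43.2 FPKM (bounds 35.2 to 51.3) and 70.4 FPKM (bounds 57.6 to 83.3). The membrane collagenase MMP14, at 30.3 FPKM and 37.0 FPKM, the membrane metalloprotease MMP16, at 45.0 FPKM and 32.0 FPKM, and MMP15, of the same family, at 2.98 FPKM and 2.43 FPKM, all overlapped.

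Of 10 measured collagen receptors 1 was higher and 2 were lower (median -0.12), beside 3.58% and 3.14% of all measured genes. A list of this size is too short to be read against those shares. ITGA11, the integrin chain that binds fibrillar collagen, was at 0.523 FPKM (bounds 0.376 to 0.669) in control and 1.90 FPKM (bounds 1.497 to 2.30) with BMH-21. ITGA10, another collagen-binding integrin chain, was at 5.05 FPKM (bounds 4.05 to 6.05) and 2.46 FPKM (bounds 1.94 to 2.97). CSPG4, the melanoma proteoglycan that binds type VI collagen, was at 134 FPKM (bounds 109.7 to 158) and 92.5 FPKM (bounds 76.7 to 108.3). MRC2, the endocytic collagen receptor, was at 27.4 FPKM and 29.4 FPKM with overlapping intervals. Of 24 measured regulators 1 was higher and 0 were lower (median 0.03), again too few genes to be read against the 3.58% and 3.14%. SNAI2, the transcription factor SLUG, was at 0.555 FPKM (bounds 0.342 to 0.768) and 1.49 FPKM (bounds 1.06 to 1.91). TGFB3, a ligand of the TGF-beta family, was at 1.03 FPKM and 1.62 FPKM with overlapping intervals. The most negative log2(FPKM + 1) differences were -0.46 for TGFBR2, a receptor of TGF-beta, at 11.3 FPKM and 7.94 FPKM, and -0.34 for SKI, which restrains the same pathway, at 12.3 FPKM and 9.49 FPKM, both with overlapping intervals.

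**Figure D5:**
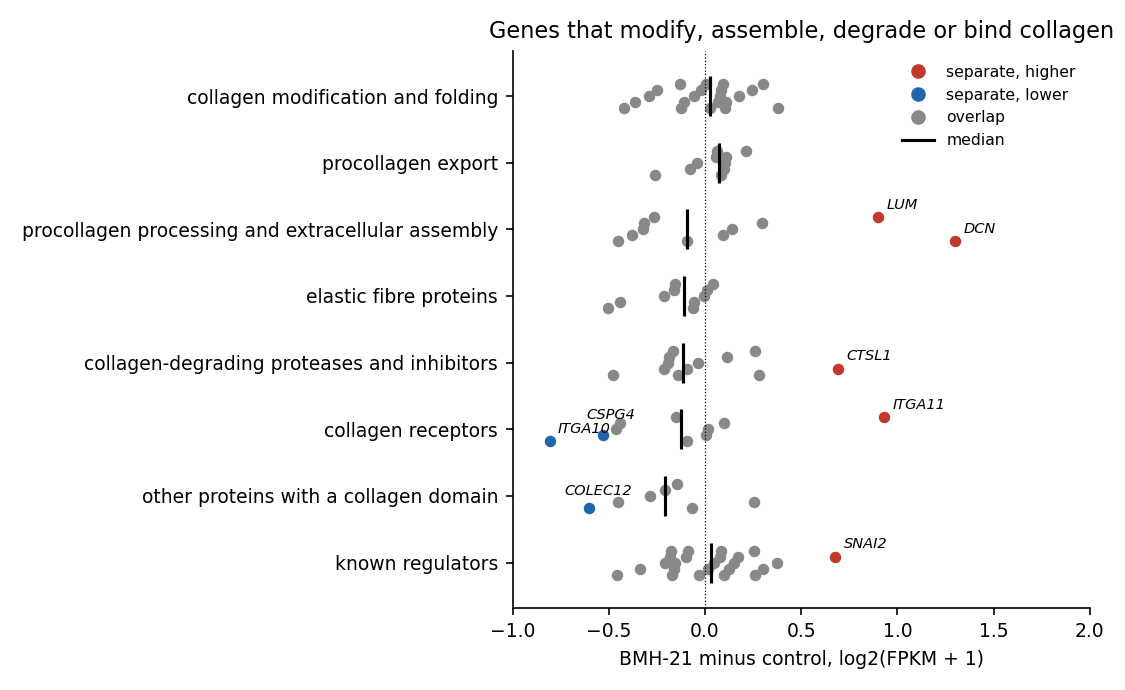
Difference in log2(FPKM + 1), BMH-21 minus control, of each measured gene in the 8 related lists; red and blue points have separate intervals, grey points overlap and black bars are list medians. The 8 named genes are the separate ones, and collagen modification, export and elastic fibre genes have none.

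The cell identity was checked against marker lists. SOX10, the neural crest factor of the melanocyte lineage, was at 97.0 FPKM in control and 90.0 FPKM with BMH-21, with overlapping intervals. Of 12 lineage markers 6 were measured, and 3 of these were lower with separate intervals, beside 3.14% of all measured genes (median log2(FPKM + 1) difference -0.53). They were MITF, the melanocyte transcription factor, at 8.06 FPKM and 5.31 FPKM, EDNRB, an endothelin receptor, at 11.4 FPKM and 7.27 FPKM, and S100B, a calcium-binding protein, at 28.7 FPKM and 17.8 FPKM. PAX3 had a higher estimate with BMH-21, at 7.02 FPKM and 8.19 FPKM, with overlapping intervals. S100A1 was at 33.2 FPKM and 22.7 FPKM and also overlapped, with a wide half-width of 1.46 in log2(FPKM + 1). The pigment genes MLANA, PMEL, DCT, TYRP1 and TYR were under 1 FPKM. Of 3 markers of neural crest-like melanoma none was separate, with AXL at 71.7 FPKM and 74.8 FPKM, NGFR at 9.45 FPKM and 9.23 FPKM, and SOX2 at 6.79 FPKM and 5.74 FPKM. Of 7 fibroblast markers 5 were measured: DCN and LUM were higher and PRRX1 was lower, at 29.1 FPKM and 13.6 FPKM, with separate intervals. Over all measured genes 3.58% were higher and 3.14% lower, and 5 markers are too few to be read against these shares. The summed level of all 7 was 35.3 FPKM in control and 24.4 FPKM with BMH-21, and PRRX1 was the largest part of it. THY1 and FAP were under 1 FPKM, as were the fibroblast collagens COL1A1, COL1A2 and COL3A1. Of 6 epithelial markers 3 were measured, all with overlapping intervals. KRT18 was at 214 FPKM in control and 236 FPKM with BMH-21, above SOX10. KRT8 was at 17.9 FPKM and 17.1 FPKM and KRT14 at 1.64 FPKM and 2.16 FPKM, while EPCAM, CDH1 and KRT5 were under 1 FPKM. None of 4 endothelial and 4 blood markers was measured. The part of these markers in the collagen results was not tested.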

How the data were processed

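Total RNA was isolated with Trizol and sequenced from stranded Illumina libraries, per the labels' protocols. The authors deposited FPKM values, 3 per group. TopHat2, Cuffdiff 2.0 and build GRCh37 appear in the submitters' processing notes without roles or settings, and no annotation is named in the sources used here. Within a relative tolerance of 0.0001 the first value was the midpoint of the other 2, so it was read as the group's estimate and they as its bounds, whose confidence level is not given. Differences are log2(FPKM + 1), BMH-21 minus control; each half-width joins those of control and BMH-21 as a root of summed squares. The limma fit planned for library values could not be run. Short RNA rows, 317 of them measured, were left out by symbol. Members, lists and motifs were chosen with earlier results of these data known. Named were all measured members and, per list, separate genes and up to 2 per direction by size; pigment and other marker genes, SERPINH1 and chromosomal neighbours were named after their values were seen. A gene was taken out of the lists and is not reported here; other list genes that are not named are given by counts. Promoter windows are from RefSeq (GRCh38.p14) and were found for 35 of 48 members; neighbours are from GENCODE. Python 3.11.15, numpy 2.4.6 and pandas 2.3.3 were used. Pseudocounts, filters, scalings and call rules were varied.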

Additional observations from a re-analysis of the deposited data

How the results depend on the processing

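LOXL4 was called lower under each alternative scaling, filter, fold and call rule tried, and its log2 difference ranged from -1.63 to -1.49. The other members called with the main filter and rule were COL7A1, which a minimum of 5 FPKM removed (1 higher left), and COL27A1, which overlapped after scaling to equal sums without short RNA rows (1 higher left). No filter gave 3 of 48 members higher and 2 lower (COL20A1 and COL15A1 added), beside 520 higher and 500 lower of 23685 genes in all. The half-width rule gave 3 members higher and 2 lower (COL16A1 and COL8A2 added), and 918 higher and 902 lower genes in all. A minimum of 5 FPKM left 244 lower genes in all, 0 members above 1.5-fold, and 2 higher related genes by bounds and 2 by fold. Pseudocounts of 0.1 and 0.01 each gave 2 members higher and 2 lower past 1.5-fold (COL27A1 and COL8A2 added), and in all genes 603 higher and 579 lower, and 637 higher and 612 lower. At 2-fold on the log2(FPKM + 1) scale, 0 members, 117 of all genes and 1 related gene were higher. Lower at 2-fold were 1 member (LOXL4), 33 of all genes and 0 related genes. Lower related genes by bounds numbered 6 with equal sums, 5 with quantile normalization and 14 by half-width. The medians of the members and of all genes were -0.12 and -0.02 under quantile normalization. Without a filter on low values they were nearly equal, at -0.0075 and -0.0052. No paired analysis was possible because the columns carry no library values, and leaving out each replicate was not run for the same reason. FPKM without read totals limits what can be said of genes under 1 FPKM.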

Other observations

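COL4A3BP, whose symbol resembles a collagen but which encodes the ceramide transfer protein, was outside the rule. It was at 9.14 FPKM (bounds 6.98 to 11.3) in control and 17.9 FPKM (bounds 14.3 to 21.6) with BMH-21, 1.96-fold higher with separate intervals. EMID2, the older symbol of COL26A1, was also outside the rule, at 0.0540 FPKM and 0.0344 FPKM. The antisense row COL18A1-AS1 was at 0.0993 FPKM and 0.141 FPKM, and the microRNA rows MIR455, inside COL27A1, and MIR711, inside COL7A1, were listed at 0 in both groups. Of 7 measured genes for other proteins with a collagen domain, 1 was lower and 0 were higher with separate intervals (median log2(FPKM + 1) difference -0.21). Over all measured genes 3.14% were lower and 3.58% higher, and 7 genes are too few to be read against these shares. The lower gene of this list was COLEC12, a scavenger receptor, at 5.13 FPKM (bounds 4.09 to 6.17) in control and 3.04 FPKM (bounds 2.39 to 3.70) with BMH-21. CTHRC1, a secreted protein with a short collagen repeat, was at 44.1 FPKM and 32.0 FPKM, and SCARA5, a ferritin receptor, at 2.01 FPKM and 2.59 FPKM, both overlapping.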
